A study of Mus musculus with 27 samples.

Results

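Genes that stood higher or lower in the mouse heart ventricle at postnatal day 7 (P7) than at both postnatal day 1 (P1) and postnatal day 60 (P60) were described in the 14 control libraries of a series of 27 RNA sequencing libraries. The 3 P7 control libraries were set against the average of the 4 P1 and the 7 P60 control libraries. A gene was kept when this contrast passed an adjusted p of 0.05 in edgeR's quasi-likelihood test and the P7 mean lay on the same side of P1 and of P60. That held for 2686 genes above both other ages, 16.4% of the 16388 genes tested, and for 2484 genes below both, 15.2%. In 754 of the genes above (4.60% of those tested) and 634 of the genes below (3.87%), the differences of P7 from P1 and of P7 from P60 each passed the threshold too. Only these 754 and 634 genes are called above or below both ages in what follows. Both differences use the same 3 P7 libraries, so a shift in those libraries moves them together.

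The P7 controls carry the genotype label Ctl, as do the P1 controls, and neither age has a time after knockout in the labels. The P60 controls hold 4 libraries labelled 7 days and 3 labelled 14 days after knockout, the times given to the MBNL1 loss-of-function (KO) libraries of the same age. The 4 MBNL1 gain-of-function (Tg) libraries of P7 are quoted beside a few genes and were not tested here. The 9 KO libraries of P60 (5 at 7 days, 4 at 14 days) entered the scaling of the levels. Like the Tg libraries, they also entered the alternative analysis that fitted all 27 libraries. MBNL1 is an RNA-binding protein that controls splicing. Strain, the alleles that the controls carry, the driver of the transgene, how the knockout was induced and what the controls received are not given in the sources used here. Age, litter, strain and handling may therefore differ together between the age groups, and their effects cannot be told apart. Whether the libraries of an age are from different mice is not stated in the labels, and each p-value reflects only how far these libraries spread. Xist and Y-linked counts gave both sexes at each age (1 female and 2 male libraries at P7, 3 and 1 at P1, 3 and 4 at P60).

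In the first postnatal week the rodent ventricle grows quickly, its cardiomyocytes divide for the last time and enlarge, and the pup lives on milk, which is rich in fat. Fibroblasts of the growing wall lay down collagen and elastic fibres, and the capillary bed expands. The energy supply of the muscle moves over these weeks from glucose and lactate towards fatty acids. Circulating corticosterone in rodents is low for part of the suckling period, and a daily rhythm of corticosterone and feeding appears later.

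Total counts were 24222016 to 24817135 in the P7 libraries, 25140399 to 25675115 at P1 and 21929347 to 23030901 at P60. Levels are read counts scaled to a common library size (CPM) after TMM scaling, and at P7 the limit that a count of 0 allows (3 counts, counting error only) is 0.103 to 0.105 CPM. Mitochondrially encoded genes took 15.3 to 15.9% of the counts at P7, 10.3 to 13% at P1 and 26 to 29.6% at P60. Marker genes of ventricular muscle were high in each library, with Myh6, a cardiac myosin, at 16298 to 19037 CPM and Myl2, a ventricular light chain, at 5019 to 5161 CPM in the P7 libraries. P7 library 3 held transcripts of liver (Alb 45.8 CPM, Apoa1 7.25 CPM), which stood at 0.104 to 0.241 CPM and 0.0696 to 0.138 CPM in the other P7 libraries. P7 library 2 held the brown fat gene Ucp1 at 5.85 CPM, and P7 library 1 held less atrial Myl7 (29.9 CPM) than libraries 2 and 3 (both at least 137 CPM). On the first principal component (76.5% of the variance) P1 libraries 1 and 2 lay at −102.4 and −101.3. P1 libraries 3 and 4 lay nearer to P7, at −72.5 and −85.7, with the P7 libraries at −69.2 to −66.6. The second (6.97%) set all P1 libraries, at 13.7 to 38.8, apart from P7, at −42 to −40.9. On the third principal component (3.24%) P1 libraries 1 and 2 lay together, at −23.8 and −24.3. Libraries 3 and 4 lay apart from them and from each other, at 47.3 and 15.9. Counts are therefore also given without libraries 3 and 4 and, in an analysis added after the data were seen, without libraries 1 and 2.

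The transient changes were mostly modest in size. The lesser of the 2 log2 differences, the one that limits membership, had a median of 0.612 among the genes above and −0.459 among those below, and it was the difference from P1 in 487 of the 754 and in 447 of the 634 genes. P7 differed at least 2-fold from both ages in 136 genes above and 130 below, and at least 4-fold in 12 and 34. The 3 P7 libraries did not overlap any P1 or P60 library in 669 genes above and 516 below. Over all genes tested, P7 libraries stood wholly above in 6.53% and wholly below in 4.63%. Protein-coding genes made up 89% of the genes above and 94% of those below, against 85.4% of the genes tested. Higher calls were 54.3% of both sets together under TMM scaling and 72.4% under scaling by total counts, so the balance of directions depends on the scaling.

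The threshold itself separates near neighbours. Pitpnc1, the last gene inside the contrast, had 80.5, 82.1, 87.2 and 85.8 CPM at P1, 100, 93.6 and 96.1 CPM at P7 and 85.8, 90.7 and 99.4 CPM (lowest, median and highest) at P60, with a contrast of 0.14 ± 0.06 log2 (SE). Smurf2, the first outside it, had 52.4, 53.9, 49.7 and 56.4 CPM at P1, 60.98, 60.4 and 58.8 CPM at P7 and 44.1, 52.4 and 61.5 CPM at P60, with a contrast of 0.20 ± 0.08. In both genes the P7 libraries overlap those of P60.

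**Figure D1:**
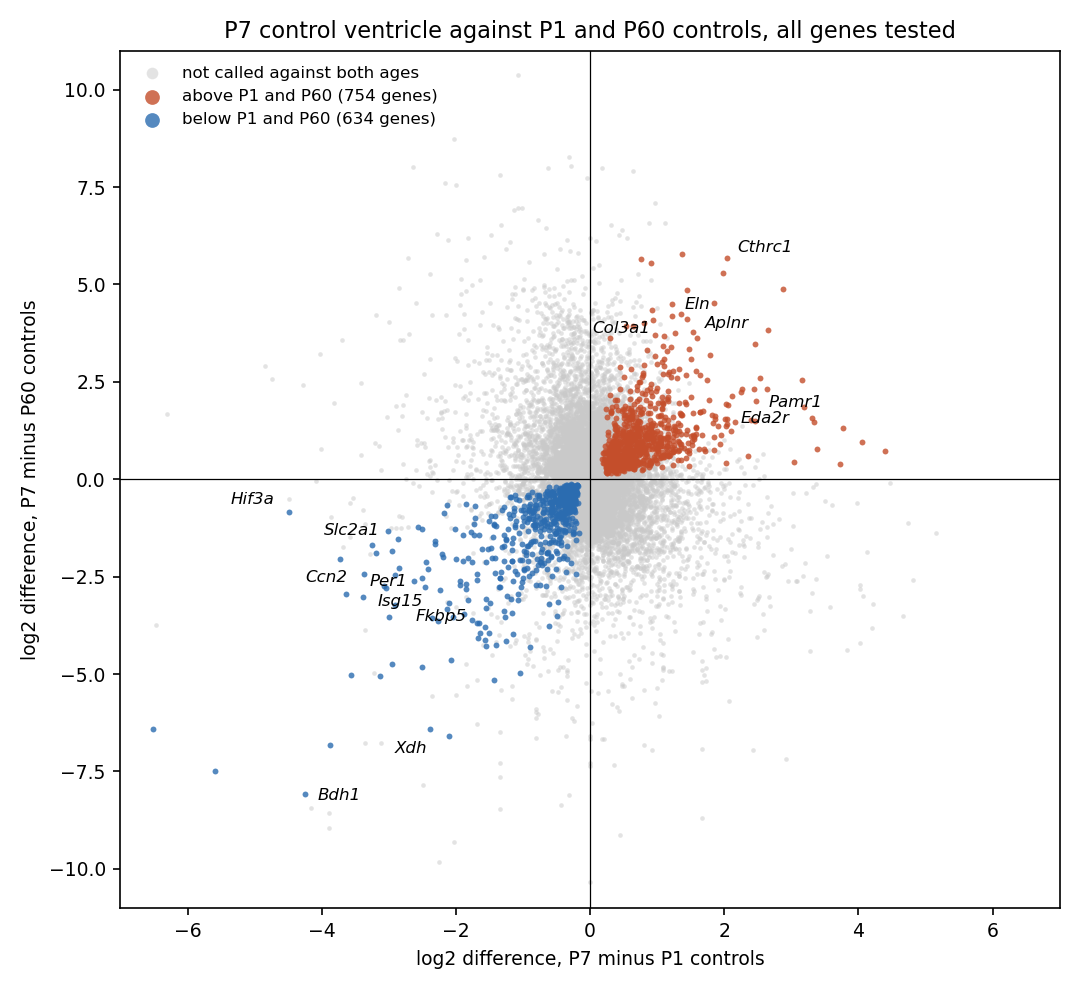
Each point is 1 of the 16388 genes tested, with the log2 difference of P7 from P1 controls on the x axis and of P7 from P60 controls on the y axis. The 754 genes above both ages fill the upper right quadrant and the 634 below both the lower left, where Bdh1 (−4.25 and −8.07) lies far out, while 2 genes fall outside the plotted range.

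The genes that stood furthest above both ages encode extracellular matrix and secreted proteins, receptors of vessels and nerves, and a few cytoskeletal and regulatory proteins. The 16 named here are the protein-coding genes with the largest lesser difference among those with at least 5 CPM at P7 and no overlap between P7 and the other libraries. Values are given for the 4 P1 libraries, the 3 P7 libraries and the lowest, median and highest of 7 P60 libraries, and differences are log2 ± SE. All 16 kept their calls against both ages in each of the 29 alternative analyses. The alternatives use the same libraries that chose the genes, so the rule favours this outcome.

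Cthrc1 (chr15:39076932-39087121, GRCm38), a secreted glycoprotein of collagen-producing fibroblasts, had 5.83, 2.73, 2.36 and 4.43 CPM at P1, 15.3, 16.3 and 16.04 CPM at P7 and 0.218, 0.249 and 0.443 CPM at P60. The P7 libraries lay closely together, the P1 libraries were each well below them, and P60 was close to the limit of detection. P7 exceeded P1 by 2.04 ± 0.24 and P60 by 5.68 ± 0.27 (adjusted p = 3.09e-05 and 2.27e-10, edgeR). Aplnr (chr2:85136225-85139923), the receptor for apelin on endothelial cells, had 77.6, 44.6, 87.1 and 126 CPM at P1, 270.2, 236 and 222 CPM at P7 and 13.3, 16.2 and 25.8 CPM at P60. It exceeded P1 by 1.53 ± 0.26 and P60 by 3.79 ± 0.23 (adjusted p = 0.000639 and 2.55e-09, edgeR). Its ligand gene Apln had 33.5, 31.4, 5.35 and 22.7 CPM at P1, 44.4, 43.3 and 46.3 CPM at P7 and 11.96, 18.9 and 23.5 CPM at P60, and the contrast passed (1.12 ± 0.31, adjusted p = 0.00853, edgeR) while the difference from P1 alone did not.

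Eda2r (chrX:97333840-97377216), a receptor for the ectodysplasin A2 ligand, had 2.82, 1.96, 1.59 and 2.07 CPM at P1, 7.69, 9.49 and 8.75 CPM at P7 and 1.71, 2.35 and 2.81 CPM at P60. P1 and P60 held nearly the same level, and P7 stood above them by 2.03 ± 0.18 and 1.92 ± 0.16 (adjusted p = 2.42e-06 and 5.34e-08, edgeR). Mfap4 (chr11:61485431-61488900), a protein of elastic microfibrils, showed the same form, with 53.02, 40.8, 42.3 and 59.01 CPM at P1, 158, 163 and 183 CPM at P7 and 30.9, 40.5 and 56.4 CPM at P60. Pamr1, named for its link to muscle regeneration, had 1.52, 1.06, 3.86 and 3.05 CPM at P1, 12.3, 13.6 and 13.98 CPM at P7 and 2.55, 3.48 and 4.096 CPM at P60. Lrrc55, an auxiliary subunit of large-conductance potassium channels, had 1.36, 1.25, 0.255 and 2.17 CPM at P1, 5.81, 5.64 and 4.95 CPM at P7 and 0.748, 0.965 and 2.67 CPM at P60. In all 3 of these genes P1 and P60 overlapped and P7 was 1.78 to 2.48 above P1 on the log2 scale.

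In others the P60 libraries lay below all P1 libraries. Cpz, an extracellular carboxypeptidase that binds Wnt proteins, had 2.07, 2.02, 2.9 and 2.76 CPM at P1, 6.89, 7.22 and 8.16 CPM at P7 and 0.178, 0.673 and 0.938 CPM at P60. Prdm1, the transcriptional repressor Blimp-1, had 1.81, 1.99, 1.47 and 2.85 CPM at P1, 6.64, 6.09 and 5.51 CPM at P7 and 0.4896, 0.818 and 1.37 CPM at P60. Ccn3, a matricellular protein, had 13.6, 12, 17.2 and 20.5 CPM at P1, 37.5, 48.9 and 48.4 CPM at P7 and 2.02, 5.25 and 7.96 CPM at P60. The rise above P1 was 1.60 ± 0.26 for Cpz, 1.57 ± 0.26 for Prdm1 and 1.499 ± 0.27 for Ccn3. Afap1l2, an adaptor linked to actin filaments, had the same order, with 5.15, 4.397, 6.57 and 9.16 CPM at P1, 19.6, 19.1 and 20.3 CPM at P7 and 2.45, 2.89 and 3.87 CPM at P60. Fndc1, a secreted protein with fibronectin type III domains, had 60.7, 57.99, 42.1 and 58.6 CPM at P1, 147, 164 and 154 CPM at P7 and 23.7, 31.8 and 48.5 CPM at P60, so P1 and P60 overlapped at their edges.

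Gfra2, the coreceptor that binds neurturin and signals with Ret, had 4.47, 3.95, 1.498 and 4.103 CPM at P1, 9.04, 10.3 and 8.93 CPM at P7 and 1.77, 2.32 and 4.09 CPM at P60. Tubb4a, a beta-tubulin, had 5.41, 6.19, 2.39 and 7.81 CPM at P1, 16.5, 15.9 and 18.3 CPM at P7 and 4.54, 5.22 and 6.27 CPM at P60. Tubulin genes are near-identical copies whose reads the counting may have split, so this value is uncertain. Mrgprf, an orphan receptor of the Mas-related family, had 1.94, 2.09, 3.601 and 3.51 CPM at P1, 10.4, 10.4 and 9.59 CPM at P7 and 2.54, 3.32 and 4.86 CPM at P60. The 2 collagens of the group are Col5a3, a chain of type V collagen, with 13.1, 14.1, 17.9 and 20.02 CPM at P1, 42.8, 54.7 and 44.8 CPM at P7 and 12.2, 13.5 and 18.98 CPM at P60, and Col15a1, a collagen next to basement membranes. Col15a1 had 237, 215, 106 and 203 CPM at P1, 531, 504 and 487 CPM at P7 and 84.95, 123 and 191 CPM at P60. By the rule that chose the 16 genes, no P1 or P60 library of either collagen reached the P7 range.

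**Figure D2:**
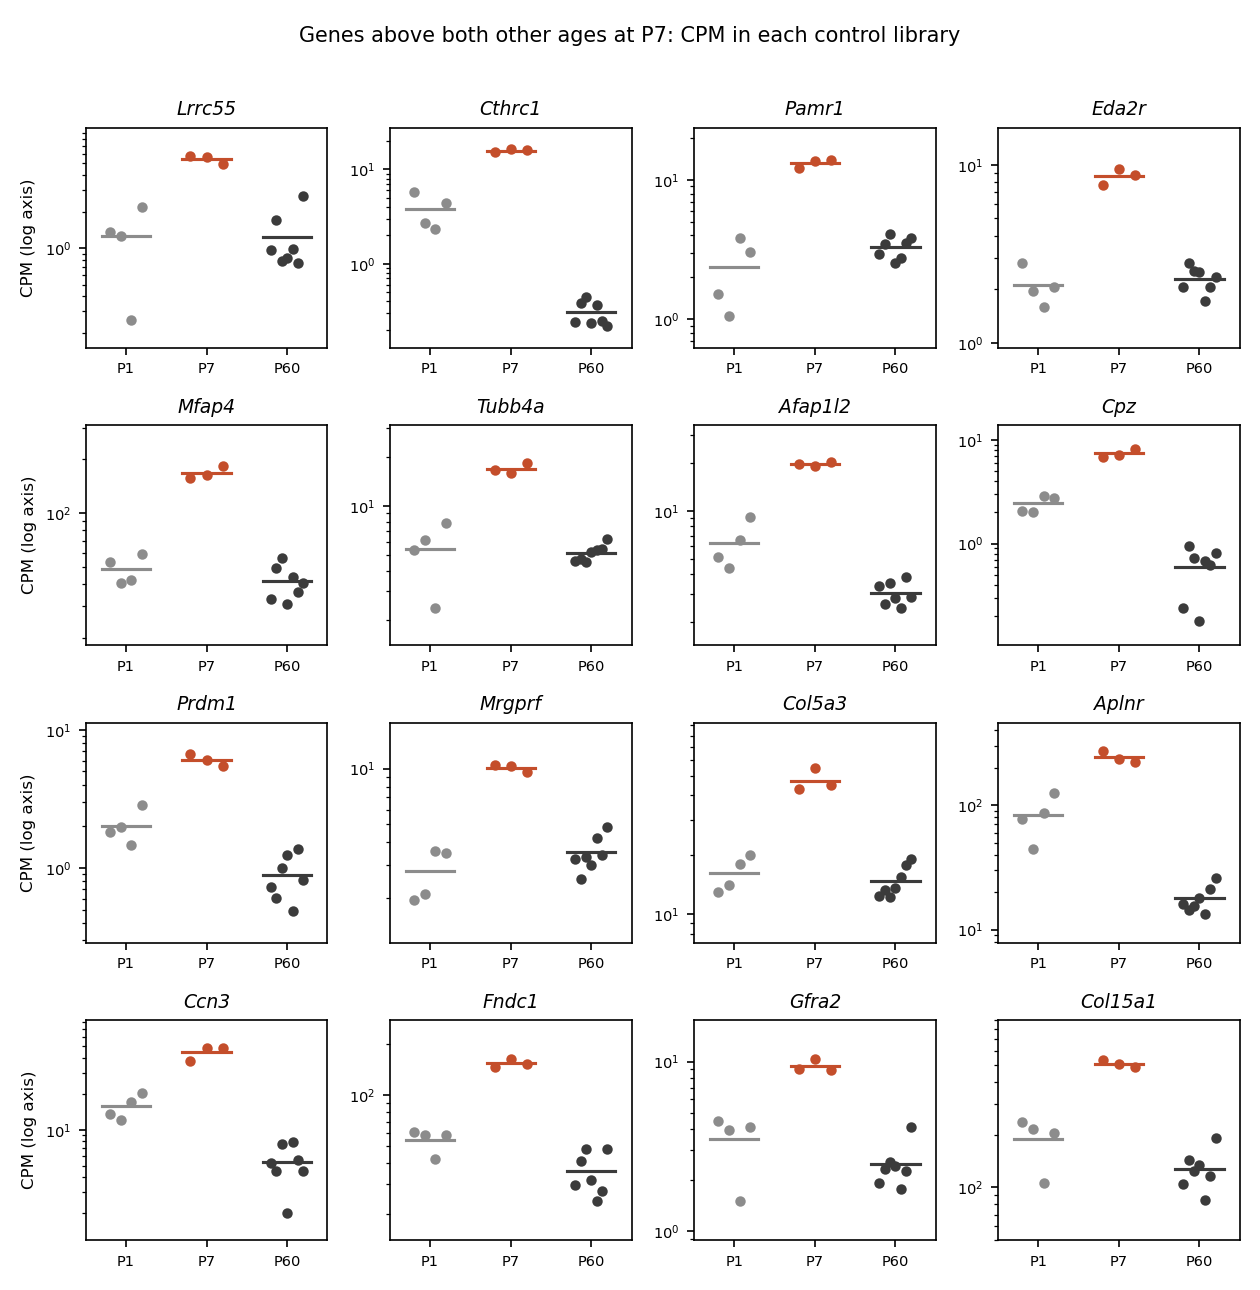
CPM on a log axis in each control library for the 16 genes, with 1 point per library, a line at the mean of each age, and ages from P1 to P60 on the x axis. In each panel the 3 P7 points lie above all P1 and P60 points, as the rule that chose the genes requires.

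Of the 58 gene lists examined, collagen genes had the largest share above both ages, 10 of 21 (47.6%, against 4.60% of all genes), and none fell. The median contrast of the list was 1.22 log2, with 0.50 against P1 and 2.06 against P60, where the median over all genes was 0.02, −0.01 and 0.05. The summed level of the 21 genes was 5619 to 8202 CPM at P1, 10761 to 11967 CPM at P7 and 1870 to 2566 CPM at P60. Col3a1, the main chain of type III collagen, had 1093, 1180, 787 and 1143 CPM at P1, 1977, 2416 and 2335 CPM at P7 and 159, 195 and 288 CPM at P60, a rise of 1.09 ± 0.19 over P1 and 3.43 ± 0.17 over P60 (adjusted p = 0.000885 and 2.8e-10, edgeR). Col1a1, of type I collagen, had 1472, 1438, 776 and 1335 CPM at P1 and 1682, 1976 and 1868 CPM at P7, a difference of 0.55 ± 0.23 that did not pass (adjusted p = 0.103, edgeR), and 131, 192 and 263 CPM at P60. Col14a1, a collagen of fibril surfaces, had 96.9, 102, 47.8 and 85.3 CPM at P1, 171, 195 and 188 CPM at P7 and 18.8, 21.2 and 45.9 CPM at P60. P1 library 3 was the lowest of its age in all 3 genes. The count of collagens above was 9 without P1 libraries 3 and 4, 12 without libraries 1 and 2, and 9 under total count scaling, and the call of Col14a1 was lost without P7 library 2.

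Genes that assemble, crosslink or accompany collagen and elastic fibres followed, with 10 of 31 above both ages (32.3%, against 4.60% of all genes), none below and a median contrast of 0.76. Those above include the lysyl oxidase genes Loxl1, Loxl3 and Loxl4, Bmp1 and Adamts2, which cut procollagen, and Ltbp1, which holds latent TGF-beta in the matrix. Eln, which encodes elastin, had 527, 287, 910.3 and 495 CPM at P1, 969, 1339 and 1577 CPM at P7 and 53.7, 71.1 and 87.7 CPM at P60, with 1.22 ± 0.29 against P1 and 4.20 ± 0.25 against P60. Its P7 libraries spread more widely than those of most genes, and the lowest stood only a little above P1 library 3. Fbn1, the fibrillin of elastic microfibrils, had 198, 192, 158 and 208 CPM at P1, 322, 334 and 328 CPM at P7 and 43.2, 47.3 and 65.3 CPM at P60. Mfap5, another microfibril protein, had 18.5, 15.2, 28.8 and 23.7 CPM at P1, 68.2, 68.6 and 73.5 CPM at P7 and 37.9, 41.3 and 42.6 CPM at P60, so that P60 lay between the other ages. Lox itself did not follow this form, with 30.8, 24.2, 41.7 and 49.6 CPM at P1, 30.5, 38.4 and 41.8 CPM at P7 and 4.47, 7.78 and 10.2 CPM at P60 and a difference of 0.01 ± 0.24 from P1.

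Matricellular proteins, which sit in the matrix and signal to cells, split in direction. Postn, Sparc, Thbs2, Thbs3, Ccn3, Lum and Aspn were above both ages and Ccn1, Ccn2 and Spp1 below, 7 and 3 of 28 genes (25 and 10.7%, against 4.60 and 3.87% of all genes). Postn, periostin, had 632, 666, 395 and 669 CPM at P1, 754, 904 and 900 CPM at P7 and 42.99, 54.9 and 68.2 CPM at P60. The difference from P1 was 0.53 ± 0.17 (adjusted p = 0.0319, edgeR), and the call was lost without P7 library 2 or library 3, with the 7-day P60 controls alone and under total count scaling. Sparc, a collagen-binding protein, had 1195, 1146, 991 and 1351 CPM at P1, 1681, 1757 and 1759 CPM at P7 and 458, 484 and 541 CPM at P60. Among proteases and their inhibitors 8 of 27 were above and 2 below (29.6 and 7.41%), with a median contrast of 0.81. Adamts12 had 18.6, 18.9, 14.98 and 18.7 CPM at P1, 31.4, 31.01 and 30.9 CPM at P7 and 1.71, 1.93 and 2.14 CPM at P60, and Adamts17 had 14.3, 10.04, 6.502 and 10.3 CPM at P1, 20.9, 18.1 and 20.1 CPM at P7 and 0.553, 1.22 and 1.96 CPM at P60. Both encode secreted metalloproteases of the matrix. Mmp2, a gelatinase, had 141, 132, 141 and 155 CPM at P1, 226, 220.5 and 214 CPM at P7 and 97.9, 112 and 125 CPM at P60, and its activator Mmp14 had 114, 99.1, 102 and 116 CPM at P1, 132, 139 and 128 CPM at P7 and 9.95, 10.5 and 12.2 CPM at P60, a call that was lost without P7 library 2. The inhibitor Timp4 went the other way, with 9.43, 4.91, 25.5 and 6.04 CPM at P1, 4.83, 4.298 and 3.905 CPM at P7 and 71.1, 82.1 and 102 CPM at P60, where P1 library 3 was far above the other P1 libraries and the call was lost without any one of the P7 libraries. In the fit of all 27 libraries the number above both ages was 6 in the collagen assembly and elastic fibre list, 4 among the matricellular genes and 5 among the proteases and inhibitors.

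These libraries are whole ventricle, in which more cells of a type and more RNA per cell cannot be told apart. Fibroblast markers differed among themselves. Pdgfra, a receptor that defines fibroblasts, had 44.8, 43.2, 43.4 and 34.8 CPM at P1, 56.6, 53.7 and 51.1 CPM at P7 and 40.4, 44.6 and 53.7 CPM at P60, and Tcf21, a fibroblast transcription factor, had 23.6, 26.5, 33.05 and 31.7 CPM at P1, 26.5, 26.99 and 29.5 CPM at P7 and 8.01, 9.89 and 11.3 CPM at P60. Tcf21 was higher at P7 than at P60 by 1.495 ± 0.12 and differed from P1 by −0.06 ± 0.14, which did not pass. Of the 20 fibroblast markers 7 were above both ages and 1 below (35 and 5%, against 4.60 and 3.87% of all genes, median contrast 0.41), and their summed level was 2281 to 3101 CPM at P1, 3842 to 4159 CPM at P7 and 3619 to 5060 CPM at P60. Its part in the matrix results was not tested. Fap, a surface protease of active fibroblasts, had 1.72, 2.25, 1.59 and 2.95 CPM at P1, 9.25, 8.699 and 9.48 CPM at P7 and 2.85, 3.88 and 5.297 CPM at P60. Thy1, a surface protein of fibroblasts, had 12.2, 12.3, 13.1 and 15.6 CPM at P1, 33.6, 31.01 and 33.9 CPM at P7 and 11.6, 14.9 and 15.8 CPM at P60. Meox1, a transcription factor of activated fibroblasts, had 18.3, 16.4, 11.8 and 22.7 CPM at P1, 35.8, 35.4 and 34.3 CPM at P7 and 7.804, 12.8 and 14.7 CPM at P60. Gsn, gelsolin, was the 1 marker below, with 373, 368, 338 and 344 CPM at P1, 239, 241 and 220.2 CPM at P7 and 1689, 2130 and 2635 CPM at P60.

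Genes of growing vessels were above both ages in larger number than the background. Of 26 angiogenic genes 7 were above and 1 below (26.9 and 3.85%, against 4.60 and 3.87% of all genes, median contrast 0.57). Of 23 endothelial markers 6 were above and 2 below (26.1 and 8.7%, median 0.13). Dll4, the Notch ligand of tip cells and arteries, had 22.1, 23.5, 16.9 and 19.99 CPM at P1, 34.1, 32.1 and 33.4 CPM at P7 and 22.3, 24.1 and 25.9 CPM at P60. Cxcr4, a chemokine receptor of vessels and leukocytes, had 6.06, 3.69, 3.44 and 5.12 CPM at P1, 16.04, 12.9 and 11.5 CPM at P7 and 4.801, 6.09 and 8.41 CPM at P60. Cdh5, the cadherin of endothelial junctions, had 344, 315, 301 and 379 CPM at P1, 487, 474 and 469.9 CPM at P7 and 219, 236 and 266 CPM at P60, 0.51 log2 above P1 and 0.99 above P60. Kdr, the main VEGF receptor, and Erg, an endothelial transcription factor, rose by 0.41 ± 0.11 and 0.59 ± 0.10 over P1 and by 0.82 ± 0.09 and 0.71 ± 0.09 over P60, and the call of Kdr was lost without P7 library 2. Pecam1, a general endothelial marker, moved less, with 189, 179, 204 and 186 CPM at P1, 222, 228 and 232 CPM at P7 and 175, 194 and 249 CPM at P60, and its difference from P60 did not pass (adjusted p = 0.0769, edgeR). Vegfa, the ligand of Kdr, had 224 to 280 CPM at P1, 254 to 281 CPM at P7 and 254 to 393 CPM at P60, with a contrast of −0.06 ± 0.10 that did not pass. The number of endothelial markers above was 8 without P1 libraries 3 and 4 and 4 without libraries 1 and 2.

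Not all vascular genes moved in this direction. Vwf, von Willebrand factor, had 81.6, 82.4, 90.9 and 80.8 CPM at P1, 52.4, 55.7 and 50.6 CPM at P7 and 128, 163 and 214 CPM at P60. Eng, endoglin, had 428, 433, 383 and 401 CPM at P1, 344, 328 and 336 CPM at P7 and 406, 417 and 459.6 CPM at P60, a fall of small size (−0.29 ± 0.07 and −0.34 ± 0.06) that was lost under total count scaling and without P1 libraries 1 and 2. Together with Npr3, the natriuretic peptide clearance receptor of the endocardium, and Nfatc1, a transcription factor of the endocardium and valves, they were the 4 of 12 endocardial markers below both ages (33.3%, against 3.87% of all genes). No endocardial marker was above, and 2 were below under total count scaling. Npr3 had 35.2, 37.1, 38.6 and 33.6 CPM at P1, 13.3, 12.6 and 14.6 CPM at P7 and 22.1, 25.9 and 32.6 CPM at P60. Nfatc1 fell by very little (−0.27 ± 0.08 and −0.24 ± 0.07), its call was lost without any one of the P7 libraries or without P1 library 1, and its contrast changed sign under total count scaling. Of the mural cell list 3 of 20 were above (15%, against 4.60% of all genes) and none below. The 3 were Pdgfrb and Notch3, receptors of pericytes and smooth muscle, and Smtn, smoothelin. Pdgfrb had 108, 96.05, 102 and 108 CPM at P1, 152, 155 and 143 CPM at P7 and 71.7, 87.7 and 106 CPM at P60. The call of Notch3 was lost without any one of the P7 libraries and without P1 library 1 or 2. The pericyte marker Rgs5 did not follow, with 105, 102, 155 and 151 CPM at P1, 395, 406 and 379.7 CPM at P7 and 459, 509.8 and 568 CPM at P60.

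Of 26 IGF and imprinted growth genes 2 were above both ages and 1 below (7.69 and 3.85%), close to the shares of all genes, and 19 were lower at P7 than at P1. Igf1 was above both ages, with 27.8, 22.4, 27.2 and 40.4 CPM at P1, 45.6, 44.9 and 44.2 CPM at P7 and 11.9, 13.2 and 16.3 CPM at P60, and its binding protein gene Igfbp4 rose with 174 to 185 CPM at P1, 229.8 to 249 CPM at P7 and 139.7 to 168 CPM at P60. Igf2, the fetal growth factor, was highest at P1, with 134, 185, 77.2 and 98.8 CPM there, 40.7, 41.9 and 38.4 CPM at P7 and 1.08, 1.77 and 2.999 CPM at P60. Igfbp3 fell, with 53.02, 55.8, 69.2 and 21.7 CPM at P1, 19.8, 18.7 and 23.1 CPM at P7 and 27.5, 33.2 and 38.7 CPM at P60, and P1 library 4 lay within the P7 range. The call of Igf1 was lost without P1 libraries 1 and 2, and that of Igfbp3 without P7 library 1 or library 2 and under total count scaling.

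Eda2r is also on the list of apoptosis and p53 target genes, of which 3 of 24 were above both ages and 1 below (12.5 and 4.17%, against 4.60 and 3.87% of all genes), and 1 and none in the fit of all 27 libraries. The other members above moved little. Zmat3, an RNA-binding p53 target, had 15.4, 14.7, 13.9 and 15.4 CPM at P1, 18.8, 18.4 and 17.6 CPM at P7 and 9.12, 10.3 and 11.2 CPM at P60, and Perp, a p53 target of cell junctions, had 223, 216, 228 and 203 CPM at P1, 271, 270.5 and 271 CPM at P7 and 179.5, 197 and 221 CPM at P60. The p53 targets Cdkn1a and Mdm2 did not pass in the contrast, at −0.33 ± 0.30 and −0.10 ± 0.08. Bcl2l1, an inhibitor of apoptosis, fell, with 51.01, 46.5, 46.6 and 40.5 CPM at P1, 38.2, 35.4 and 35.1 CPM at P7 and 154, 195 and 214 CPM at P60. The calls of Zmat3 (without P7 library 1 or 2) and Bcl2l1 (without P7 library 2 or 3) rested on single libraries, and the median contrast of the list was 0.32.

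The genes that stood furthest below both ages encode enzymes of ketone, pyruvate, purine and tryptophan metabolism, and genes induced rapidly by hormones, stretch or growth factors. The 12 named here have the largest lesser fall among protein-coding genes with at least 5 CPM at P1 and at P60 and no overlap between P7 and the other libraries. Of these, 9 kept their calls against both ages in each of the 29 alternatives, which the rule again favours, and Maff, Nr4a1 and Xdh did not.

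Bdh1 (chr16:31422280-31458901), the mitochondrial dehydrogenase of the ketone body 3-hydroxybutyrate, had 11.7, 10.6, 5.35 and 5.42 CPM at P1, 0.487, 0.103 and 0.697 CPM at P7 and 87.6, 119 and 143 CPM at P60. At P7 the reads of 1 library were at the limit that a count of 0 allows and the other libraries were a few times above it. The differences were −4.25 ± 0.42 against P1 and −8.07 ± 0.41 against P60 (adjusted p = 7.68e-06 and 4.55e-10, edgeR). Pcx, pyruvate carboxylase, had 30.8, 31.4, 19.1 and 17.7 CPM at P1, 7.13, 6.91 and 7.11 CPM at P7 and 53.3, 60.7 and 67.5 CPM at P60, with −1.81 ± 0.18 against P1 and −3.11 ± 0.18 against P60. Kyat3, a kynurenine aminotransferase of tryptophan breakdown, had 16.6, 14.5, 14.6 and 9.71 CPM at P1, 2.68, 3.301 and 3.52 CPM at P7 and 27.9, 32.5 and 34.5 CPM at P60. Acot11, an acyl-CoA thioesterase, had 30.8, 28.7, 41.6 and 15.8 CPM at P1, 10.2, 8.25 and 7.497 CPM at P7 and 32.3, 37.3 and 46.1 CPM at P60. P60 lay above all P1 libraries in Bdh1, Pcx and Kyat3 and overlapped them in Acot11.

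Xdh, xanthine dehydrogenase of purine breakdown, rests on a different pattern, with 3.11, 3.08, 28.5 and 4.398 CPM at P1, 2.16, 2.48 and 2.23 CPM at P7 and 167, 219 and 288 CPM at P60. P1 libraries 1, 2 and 4 were close to the P7 level and library 3 was far above. The difference from P1 (−2.10 ± 0.68, adjusted p = 0.0371, edgeR) was lost without any one of the P7 libraries and held in 21 of the 29 alternatives. Tmem267, a membrane protein gene, had 11.04, 12.9, 7.27 and 6.07 CPM at P1, 2.85, 1.58 and 1.67 CPM at P7 and 5.67, 8.54 and 11.8 CPM at P60. Lyve1, the hyaluronan receptor of lymphatic vessels and of resident macrophages, had 16.2, 15.2, 35.5 and 12.9 CPM at P1, 4.52, 5.36 and 6.49 CPM at P7 and 37.4, 64.8 and 74.7 CPM at P60.

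**Figure D3:**
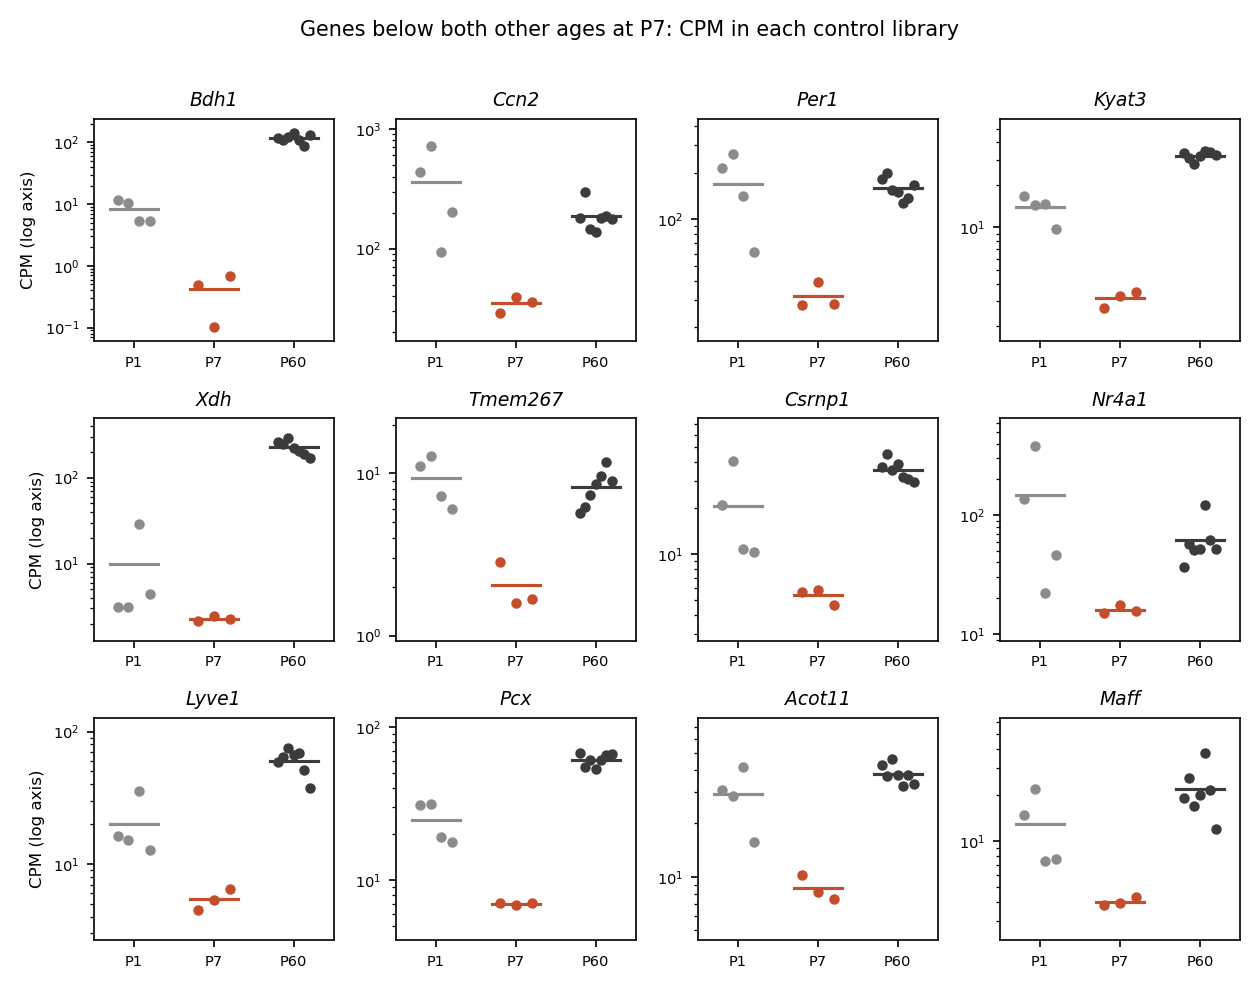
CPM on a log axis in each control library for the 12 genes, with 1 point per library, a line at the mean of each age, and ages from P1 to P60 on the x axis. In each panel the 3 P7 points lie below all P1 and P60 points, as the rule that chose the genes requires, by the narrowest margin at P1 for Xdh.

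Of the 58 lists, glucocorticoid-responsive genes had the largest share below both ages, 8 of 18 (44.4%, against 3.87% of all genes), with a median contrast of −1.495, −0.49 against P1 and −2.27 against P60. Many of these genes are induced when corticosterone activates its receptor, and the list also holds the receptor gene itself, Nr3c1. Fkbp5, a cochaperone that dampens the receptor, had 38.7, 39.6, 59.3 and 17.8 CPM at P1, 14.1, 12.8 and 13.2 CPM at P7 and 76.1, 134 and 184 CPM at P60, with differences of −1.54 ± 0.30 and −3.31 ± 0.31 (adjusted p = 0.00184 and 2.13e-07, edgeR). Per1, a clock gene that glucocorticoids also induce, had 214, 262, 142 and 61.6 CPM at P1, 27.8, 39.4 and 28.4 CPM at P7 and 128, 153 and 198 CPM at P60, with differences of −2.42 ± 0.35 and −2.31 ± 0.33 (adjusted p = 0.000201 and 1.92e-05, edgeR). In both genes P1 library 4 was the lowest of its age and still above the P7 range. Sgk1, a kinase induced by corticosteroids, had 99.5, 124, 80.4 and 48.3 CPM at P1, 32.5, 33.9 and 32.4 CPM at P7 and 95.8, 132 and 169 CPM at P60. The metallothionein genes fell together, Mt1 with 119, 124, 198 and 109 CPM at P1, 59.6, 46.9 and 56.4 CPM at P7 and 234, 404 and 453 CPM at P60, and Mt2 with 3.53, 4.49, 8.32 and 3.31 CPM at P1, 1.01, 0.928 and 0.942 CPM at P7 and 5.07, 12.7 and 15 CPM at P60. Metallothioneins bind zinc and respond to metals as well as to glucocorticoids.

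Other members of the list rested on fewer libraries or moved only against P60. Fam107a, an actin-associated stress gene, had 5.86, 4.17, 5.61 and 1.77 CPM at P1, 1.91, 1.96 and 2.44 CPM at P7 and 42.7, 72.01 and 81.6 CPM at P60. P1 library 4 lay below the P7 range, and the call was lost without any one of the P7 libraries or without P1 library 1 or 3. Hsd11b1, the enzyme that regenerates active corticosterone, had 0.453, 0.385, 1.27 and 1.57 CPM at P1, 0.243, 0 and 0.279 CPM at P7 and 7.86, 14.5 and 25.5 CPM at P60. It had no count in P7 library 2, it was near the floor in the other P7 libraries and at P1, and its call against both ages held in 17 of the 29 alternatives. Tsc22d3, Klf9 and Zbtb16 stood below P60 by −1.83 ± 0.18, −2.23 ± 0.21 and −3.23 ± 0.42, and their differences from P1 of −0.38 ± 0.18, −0.08 ± 0.20 and 0.38 ± 0.40 did not pass. Klf15, a glucocorticoid-responsive regulator of metabolism listed with the cardiac transcription factors, fell against both ages, with 45.6, 35.8, 47.1 and 17.1 CPM at P1, 13.3, 13.8 and 9.94 CPM at P7 and 148, 166 and 199 CPM at P60. Nr3c1, the gene of the glucocorticoid receptor itself, was the 1 member above both ages, with 49.8, 54.2, 53.6 and 58.7 CPM at P1, 84.9, 86.8 and 83.7 CPM at P7 and 61.6, 69.3 and 77.7 CPM at P60. Nr3c1 and Sgk1 fall outside the rule for named genes and were chosen after their values were seen. The list had 7 members below without P1 libraries 3 and 4, 7 without libraries 1 and 2, and 9 under total count scaling. It had 6 below under limma-voom and 6 with the 14-day P60 controls alone, where the call of Nr3c1 was lost.

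The DNA before 3 of these genes holds a glucocorticoid response element in its loose palindromic form, GNACANNNTGTNC on either strand. The 250 bases before the start of each gene were read from the RefSeq promoter table (GRCm38.p6), which had an entry for 11639 of the genes tested. The motif was in 41 of the 11639 (0.352%), in 5 of the 470 genes below both ages that had an entry (1.06%), in 1 of 508 above (0.197%), and in 3 of 15 on the glucocorticoid list (20%), namely Sgk1, Mt1 and Fam107a. Of the 3 stretches, 2 are shown because the calls of Sgk1 and Mt1 held in each of the 29 alternatives and that of Fam107a in 21, Sgk1 at chr10:21993640-21993889 on the plus strand and Mt1 at chr8:94178839-94179088 on the plus strand, with the motif in capitals 188 and 94 bases before the start.
Sgk1: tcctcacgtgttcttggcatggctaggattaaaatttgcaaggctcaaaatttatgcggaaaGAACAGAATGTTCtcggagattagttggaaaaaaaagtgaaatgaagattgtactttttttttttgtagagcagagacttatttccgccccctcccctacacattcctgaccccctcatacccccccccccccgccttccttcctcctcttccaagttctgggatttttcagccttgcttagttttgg
Mt1: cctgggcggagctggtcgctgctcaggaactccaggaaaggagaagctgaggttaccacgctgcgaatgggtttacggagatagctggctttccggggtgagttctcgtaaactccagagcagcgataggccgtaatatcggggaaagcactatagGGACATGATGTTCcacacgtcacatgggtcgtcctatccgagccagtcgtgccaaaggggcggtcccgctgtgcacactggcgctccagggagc
A match in these letters is a description of the sequence and not evidence of binding.

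Clock genes other than Per1 moved less evenly. Per2, its partner in the repressor arm of the clock, fell, with 34.3, 29.1, 37.2 and 12.01 CPM at P1, 13.01, 14.5 and 14.2 CPM at P7 and 41.01, 64.2 and 70.8 CPM at P60, and P1 library 4 lay just below the P7 range. Its call was lost without any one of the P7 libraries. Dbp, a clock output gene, had 21.1, 22.3, 14.5 and 17.8 CPM at P1, 27.97, 24.4 and 28.1 CPM at P7 and 48.04, 93.6 and 170.4 CPM at P60, and Arntl, of the activating arm, had 6.71, 8.34, 14.2 and 10.2 CPM at P1, 8.28, 10.6 and 8.05 CPM at P7 and 1.21, 2.85 and 11.8 CPM at P60, with neither contrast past the threshold. Of 19 clock genes 2 were below (10.5%, against 3.87% of all genes) and none above. The hour of tissue collection is not given in the sources used here, and age and hour cannot be told apart for these genes.

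Interferon-responsive genes had the largest count below both ages of any list, 14 of 36 (38.9%, against 3.87% of all genes), with none above and a median contrast of −1.15 (−0.66 against P1, −1.78 against P60). These genes encode antiviral proteins that interferon induces through STAT and IRF factors, and many are at low level in tissue without infection. Isg15, a ubiquitin-like protein, had 2.07, 4.24, 0.8287 and 4.103 CPM at P1, 0.731, 0.447 and 0.593 CPM at P7 and 2.18, 5.02 and 6.14 CPM at P60, with differences of −2.24 ± 0.46 and −2.83 ± 0.45 (adjusted p = 0.00304 and 4.53e-05, edgeR). P1 library 3 was the lowest of its age and close to the highest P7 library. Ifi27l2a, a mitochondrial protein induced by interferon, had 2.75, 3.498, 2.77 and 8.11 CPM at P1, 0.731, 0.8596 and 1.46 CPM at P7 and 17.6, 27.97 and 32.8 CPM at P60. Irf7, which amplifies the interferon response, had 8.32, 11.1, 4.05 and 12.7 CPM at P1, 4.04, 3.33 and 4.11 CPM at P7 and 18.2, 34.04 and 41.3 CPM at P60, where P1 library 3 overlapped P7. Of the oligoadenylate synthetases that sense double-stranded RNA, Oas2 had 1.78, 1.64, 0.8287 and 2.66 CPM at P1, 0.487, 0.653 and 0.767 CPM at P7 and 15.5, 23.7 and 32.9 CPM at P60, and Oas3 had 1.13, 1.28, 0.669 and 0.853 CPM at P1, 0.104, 0.172 and 0.105 CPM at P7 and 0.491, 1.51 and 2.43 CPM at P60. Zbp1, a sensor of nucleic acids, had 0.453, 0.449, 0.319 and 0.558 CPM at P1, 0.0696, 0.172 and 0.174 CPM at P7 and 0.935, 2.99 and 4.52 CPM at P60. Oas3 and Zbp1 were at or near the limit of detection at P7, so their fitted differences depend on few reads.

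Macrophages are among the cells that express such genes, and their markers also differed between ages. Csf1r had 13.5 to 18.8 CPM at P1, 23.6 to 28.0 CPM at P7 and 59.1 to 85.4 CPM at P60, and Adgre1 2.57 to 3.19 CPM at P1, 4.73 to 7.01 CPM at P7 and 8.92 to 16.5 CPM at P60. For both markers the P7 libraries lay above all P1 and below all P60 libraries. The 24 macrophage markers summed to 119.5 to 192.5 CPM at P1, 152.1 to 187.9 CPM at P7 and 539.4 to 829.2 CPM at P60. Of these markers 1 was above and 1 below both ages (4.17% each, against 4.60 and 3.87% of all genes). The part of macrophages in the interferon result was not tested. The marker above was Cx3cr1, the fractalkine receptor, with 5.44, 4.88, 3.83 and 8.17 CPM at P1, 11.3, 11.4 and 13.4 CPM at P7 and 0.623, 0.796 and 1.38 CPM at P60. The number of interferon genes below was 19 without P1 libraries 3 and 4, 10 without libraries 1 and 2, and 14 under total count scaling.

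The interferon-stimulated response element, GAAANNGAAA on either strand, was in the 250 bases before 365 of 11639 genes tested (3.14%), 24 of 470 below both ages (5.11%) and 12 of 508 above (2.36%). On the interferon list it was before 15 of 26 genes with an entry (57.7%), and of the 8 such genes below both ages it was before Isg15, Oas1a, Oas3 and Bst2. The stretches before Isg15 (chr4:156200819-156201068, minus strand) and Oas3 (chr5:120777660-120777909, minus strand) are shown because both genes were under 1 CPM in each P7 library, with the element in capitals. Isg15 holds 3 overlapping matches 78, 72 and 66 bases before its start and Oas3 1 match 75 bases before it.
Isg15: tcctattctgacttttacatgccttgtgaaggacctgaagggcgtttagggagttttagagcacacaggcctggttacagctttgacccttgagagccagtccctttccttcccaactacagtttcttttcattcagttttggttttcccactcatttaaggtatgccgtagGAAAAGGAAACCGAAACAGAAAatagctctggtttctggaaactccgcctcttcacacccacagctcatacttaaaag
Oas3: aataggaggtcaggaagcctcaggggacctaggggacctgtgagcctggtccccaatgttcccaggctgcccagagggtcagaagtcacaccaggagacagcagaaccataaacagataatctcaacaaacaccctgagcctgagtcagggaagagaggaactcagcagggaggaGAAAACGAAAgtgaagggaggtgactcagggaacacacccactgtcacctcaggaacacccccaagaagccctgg

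Genes of glycolysis and glucose uptake were below both ages in 7 of 25 cases (28%, against 3.87% of all genes), with none above and a median contrast of −0.59 (−0.55 against P1, −0.71 against P60). Slc2a1, the glucose transporter GLUT1, had 108, 122, 32.7 and 30.03 CPM at P1, 10.3, 10.5 and 9.48 CPM at P7 and 19.6, 29.7 and 39.3 CPM at P60, with differences of −2.86 ± 0.44 and −1.53 ± 0.40 (adjusted p = 0.000359 and 0.00344, edgeR). P1 libraries 1 and 2 were more than 3-fold above libraries 3 and 4, and even the lower pair exceeded P7. Gapdh had 3763, 4007, 3029 and 3677 CPM at P1, 2352, 2047 and 2350 CPM at P7 and 4418, 4659 and 5135 CPM at P60, and as a gene with many processed copies its value is uncertain. Pdk1, a kinase that holds pyruvate back from oxidation, had 196, 216, 148 and 163 CPM at P1, 98.6, 95.8 and 92.8 CPM at P7 and 169.5, 194 and 212 CPM at P60. Hk1, the hexokinase of the fetal heart, had 562, 564, 502 and 438 CPM at P1, 257, 259.7 and 279 CPM at P7 and 229.6, 263 and 302 CPM at P60, a fall of −0.96 ± 0.09 against P1 and a difference of 0.04 ± 0.08 from P60 that did not pass. Pkm passed in the contrast (−0.30 ± 0.10) but not against P1. The summed level of the list was 12267 to 16747 CPM at P1, 10381 to 11200 CPM at P7 and 18875 to 21335 CPM at P60.

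The list of hypoxia-responsive genes, which shares Slc2a1, Pdk1, Ldha, Pgk1 and Pfkfb3 with the glycolysis list, had 7 of 21 below both ages (33.3%, against 3.87% of all genes, median contrast −0.53) and none above. Hif3a, a hypoxia-inducible factor subunit, had 168, 179, 132 and 57.5 CPM at P1, 6.05, 7.599 and 4.32 CPM at P7 and 7.48, 9.61 and 15.1 CPM at P60, so the fall was large against P1 (−4.49 ± 0.35) and small against P60 (−0.84 ± 0.31, adjusted p = 0.0237, edgeR). The lowest P60 library lay within the P7 range, and the call was lost without P7 library 1 or 3 and under total count scaling. Bnip3, a mitophagy receptor, had 51.4, 63.7, 44.2 and 33.1 CPM at P1, 17.01, 20.4 and 19.1 CPM at P7 and 92.03, 127 and 161 CPM at P60. Egln3, a prolyl hydroxylase that marks HIF for breakdown, had 80.5, 119, 43.8 and 37.5 CPM at P1, 32.7, 29.4 and 31.5 CPM at P7 and 82.7, 95.3 and 107 CPM at P60. Without P1 libraries 3 and 4 the number below was 11 in the glycolysis list and 11 in the hypoxia list, without libraries 1 and 2 it was 7 and 8, and under total count scaling 5 and 5.

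The core of the hypoxia response element, ACGTG on either strand, is short and also lies inside the E-box CACGTG, and it was found before 2819 of 11639 genes (24.2%), 114 of 470 below both ages (24.3%) and 100 of 508 above (19.7%). It stood before 13 of 17 genes on the hypoxia list (76.5%) and before 4 of the 6 below both ages with an entry, Egln3, Slc2a1, Bnip3 and Mxi1. It also stood before 9 of 15 genes on the glucocorticoid list (60%) and 5 of the 7 of those below (71.4%), but before 1 of the 6 glycolysis genes below (16.7%). Slc2a1 is shown because its fall was the largest of the glucose genes named here, with the core in capitals 36 bases before the start (chr4:119108495-119108744, plus strand).
Slc2a1: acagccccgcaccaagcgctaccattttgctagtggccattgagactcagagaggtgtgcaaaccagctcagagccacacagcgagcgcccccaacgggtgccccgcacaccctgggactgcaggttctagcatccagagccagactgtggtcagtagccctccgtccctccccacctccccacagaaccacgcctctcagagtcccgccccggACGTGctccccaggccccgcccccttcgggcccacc

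Ketone body genes were below both ages in 3 of 8 cases (37.5%, against 3.87% of all genes). Beside Bdh1, Bdh2, a cytosolic hydroxybutyrate dehydrogenase, had 0.421, 0.353, 1.08 and 0.689 CPM at P1, 0.243, 0.172 and 0.279 CPM at P7 and 0.436, 0.673 and 0.904 CPM at P60, low throughout, and its call was lost without P7 library 1 or 2. Slc16a1, a transporter of lactate and ketone bodies, had 171, 185, 146 and 135 CPM at P1, 136, 129 and 135 CPM at P7 and 309, 343 and 367 CPM at P60, and its difference from P1 (−0.26 ± 0.09, adjusted p = 0.0468, edgeR) held in 10 of the 29 alternatives. Oxct1, which commits ketone bodies to oxidation, was below P60 (−2.53 ± 0.23) with 389.5, 399.5, 164 and 229.6 CPM at P1, 201, 186 and 231 CPM at P7 and 1075, 1242 and 1285 CPM at P60, with P1 library 3 below the P7 range.

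Immediate early genes, which cells switch on within minutes of a stimulus or of handling, were below both ages in 5 of 24 cases (20.8%, against 3.87% of all genes, median contrast −0.74). Nr4a1, a nuclear receptor, had 137, 384, 22.1 and 45.8 CPM at P1, 14.99, 17.6 and 15.5 CPM at P7 and 36.96, 52.1 and 122 CPM at P60, and its call was lost without P7 library 1 or 3 and under total count scaling. Maff, a small Maf factor, had 14.8, 21.9, 7.46 and 7.61 CPM at P1, 3.83, 3.92 and 4.29 CPM at P7 and 12.1, 19.9 and 37.5 CPM at P60, and its call was lost without P1 libraries 1 and 2. Zfp36, which destabilizes inflammatory mRNAs, had 27.8, 59.8, 33.3 and 42.01 CPM at P1, 25.3, 26.4 and 24.2 CPM at P7 and 85.3, 114 and 131 CPM at P60, and was lost without P7 library 1 or 3. Csrnp1, a rapidly induced nuclear protein that is not on the list, had 20.9, 40.7, 10.9 and 10.3 CPM at P1, 5.64, 5.84 and 4.64 CPM at P7 and 29.6, 35.1 and 45.2 CPM at P60. P1 library 2 was the highest of its age in all 4 genes. Fos had 4.37, 28.9, 2.71 and 7.09 CPM at P1, 1.36, 1.41 and 1.36 CPM at P7 and 1.09, 3.55 and 5.42 CPM at P60. Atf3 had 60.7, 146, 5.16 and 20.5 CPM at P1, 6.297, 4.75 and 3.45 CPM at P7 and 4.28, 13.01 and 28.6 CPM at P60. The difference from P60 did not pass in either gene. Egr1 had 67.3, 177, 24.3 and 49.9 CPM at P1, 15.2, 18.5 and 21.4 CPM at P7 and 8.55, 10.6 and 12.9 CPM at P60. The number below was 10 without P1 libraries 3 and 4, 5 without libraries 1 and 2, and 3 under total count scaling.

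Ccn2 (chr10:24595442-24598683), connective tissue growth factor, a target of YAP and of TGF-beta, fell strongly, with 439, 716, 93.3 and 203 CPM at P1, 28.8, 39.8 and 36.05 CPM at P7 and 138, 180.2 and 298 CPM at P60. The P1 libraries spread widely and all exceeded P7. The differences were −3.38 ± 0.53 from P1 and −2.42 ± 0.48 from P60 (adjusted p = 0.000392 and 0.000406, edgeR). Ccn1, its relative, had 51.8, 282, 34.1 and 79 CPM at P1, 32.8, 29.8 and 27.6 CPM at P7 and 61, 89.5 and 97.99 CPM at P60, and this call was lost without any one of the P7 libraries and under total count scaling. They were the 2 genes below both ages among 23 of the Hippo pathway and its targets (8.7%, against 3.87% of all genes), and none was above.

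Of 30 genes of adult cardiomyocytes 3 were below both ages and 1 above (10 and 3.33%, against 3.87 and 4.60% of all genes), and none was below in the fit of all 27 libraries. Of 20 fetal sarcomere and stress genes 1 was below (5%), and of 24 cardiac transcription factors 4 were below and 1 above (16.7 and 4.17%). Nppb, the natriuretic peptide BNP, had 222, 339, 93.9 and 174 CPM at P1, 47.1, 52.6 and 53.7 CPM at P7 and 61.05, 118 and 195 CPM at P60, and its call was lost under total count scaling. Corin, the protease that activates atrial natriuretic peptide, had 124, 119, 190.3 and 124 CPM at P1, 94.8, 98.1 and 88.8 CPM at P7 and 326, 369 and 419 CPM at P60. Ckm, muscle creatine kinase, had 1492, 1541, 1315 and 1569 CPM at P1, 1124, 1030 and 1060 CPM at P7 and 1719, 1936 and 2142 CPM at P60. Tnnt2, cardiac troponin T, had 3898, 4849, 4829 and 5185 CPM at P1, 3252, 3961 and 3806 CPM at P7 and 5730, 6155 and 6452 CPM at P60, a small fall that was lost without P7 library 1 and under total count scaling. Hand2, a cardiac transcription factor, had 98.7, 105, 113 and 112 CPM at P1, 65.6, 64.99 and 61.7 CPM at P7 and 106, 146 and 158 CPM at P60. The estrogen-related receptors, which regulate mitochondrial genes, fell as well. Esrrb had 21.8, 19.9, 25.9 and 23.4 CPM at P1, 12.7, 12.6 and 14.7 CPM at P7 and 57.3, 62.3 and 65.1 CPM at P60. Esrrg had 35.5, 38, 30.9 and 29.9 CPM at P1, 25.1, 24.8 and 22.5 CPM at P7 and 40.9, 45.1 and 52.6 CPM at P60. Irx3, a factor of the conduction system, rose, with 46.1, 39.2, 66.7 and 65.8 CPM at P1, 108, 80.5 and 79.5 CPM at P7 and 40.4, 53.2 and 67.3 CPM at P60, and Adrb1, the beta-1 adrenergic receptor, with 25.7, 43.9, 33.8 and 39.8 CPM at P1, 57.7, 50.4 and 47.5 CPM at P7 and 20.3, 30.7 and 35.2 CPM at P60. Both calls depended on single libraries, that of Irx3 on P7 library 1 and that of Adrb1 on each P7 library, on P1 libraries 1 and 3 and on P60 library 4 of 7 days.

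**Figure D4:**
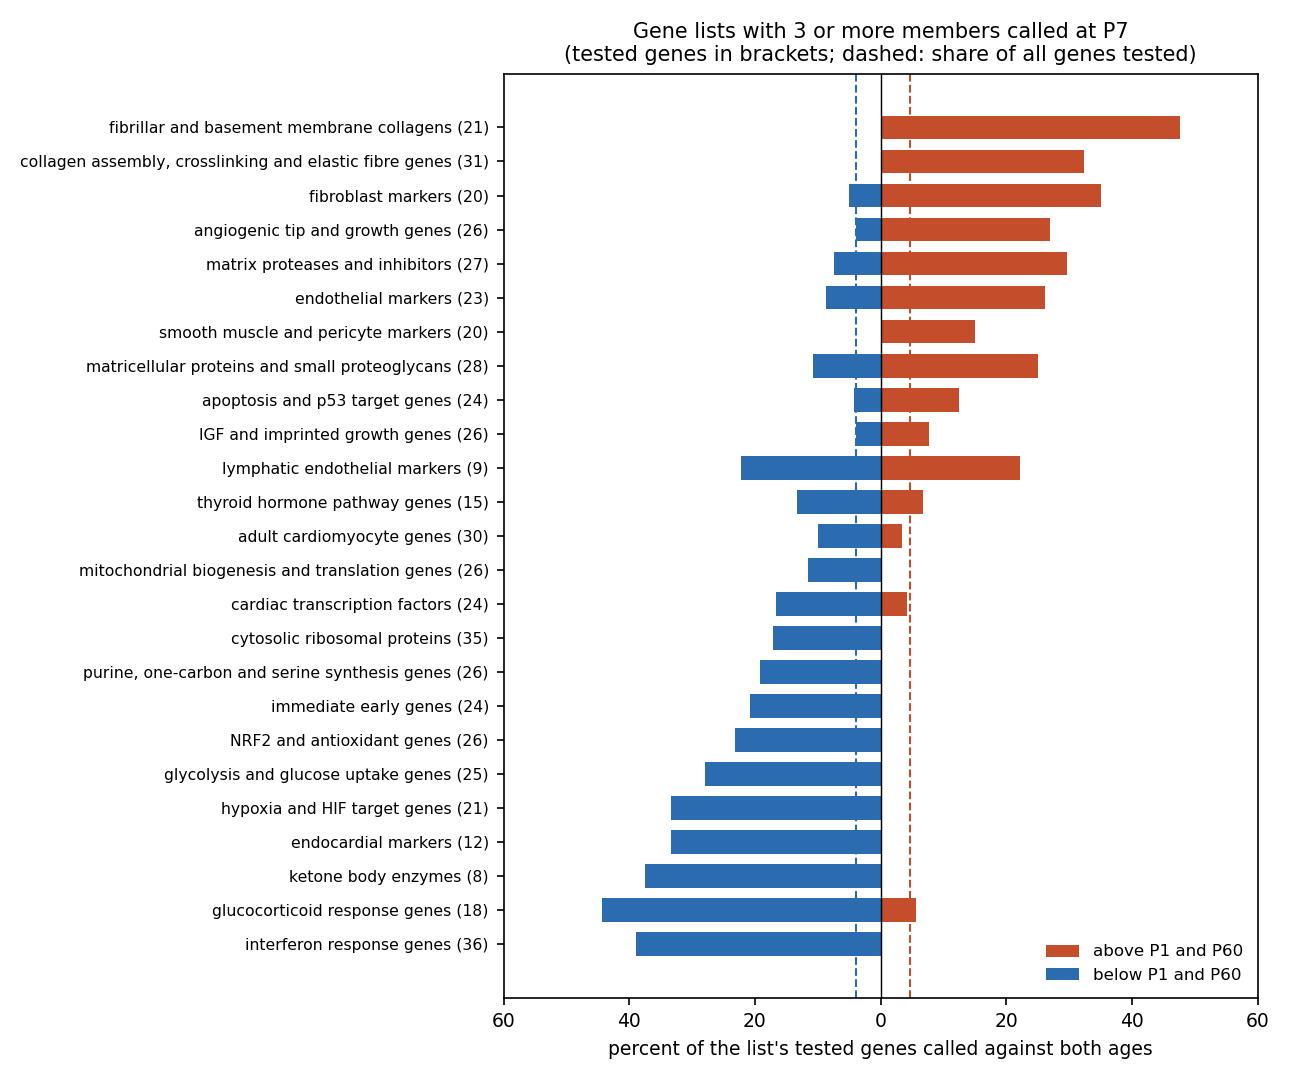
Share of each gene list called above (right) or below (left) both ages, in percent of its tested genes, for the 25 lists with 3 or more called members. The dashed lines mark the 4.60% and 3.87% of all genes tested, and collagens reach 47.6% above and glucocorticoid-responsive genes 44.4% below.

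The P1 controls held 2 states of the fasting and suckling genes that PPAR alpha induces, which bears on what counts as transient. Angptl4, an inhibitor of lipoprotein lipase, had 4.53, 5.17, 120.3 and 128 CPM at P1, 129, 109.5 and 111 CPM at P7 and 3.65, 9.23 and 16.6 CPM at P60. P1 libraries 1 and 2 were far below the P7 libraries and libraries 3 and 4 were in the P7 range. The contrast passed (2.20 ± 0.69, adjusted p = 0.0172, edgeR) while the difference from P1 alone did not. Pdk4, which spares pyruvate during fat oxidation, had 35.2, 37.96, 272 and 212 CPM at P1, 336, 277 and 291 CPM at P7 and 270.3, 740.3 and 1661 CPM at P60. Ucp2, a mitochondrial carrier, was the 1 of 19 genes of the list above both ages (5.26%, against 4.60% of all genes), with 78.2, 68.4, 238 and 251 CPM at P1, 407, 396 and 389.9 CPM at P7 and 144, 182 and 289 CPM at P60, a call that was lost with the 7-day P60 controls alone. Slc2a1, Atf3, Mki67 and Cdk1 split the P1 libraries the other way, with Mki67, a marker of dividing cells, at 156, 170.5, 52.5 and 71.3 CPM. Without P1 libraries 3 and 4, 7 of the 19 genes were above both ages and the median contrast of the list was 0.91, against −0.02 with all libraries, and without libraries 1 and 2 the count above was 1. Which hours after birth the P1 libraries represent is likewise not given. The numbers of genes above and below both ages were 971 and 860 without P1 libraries 3 and 4, and 832 and 611 without libraries 1 and 2.

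**Figure D5:**
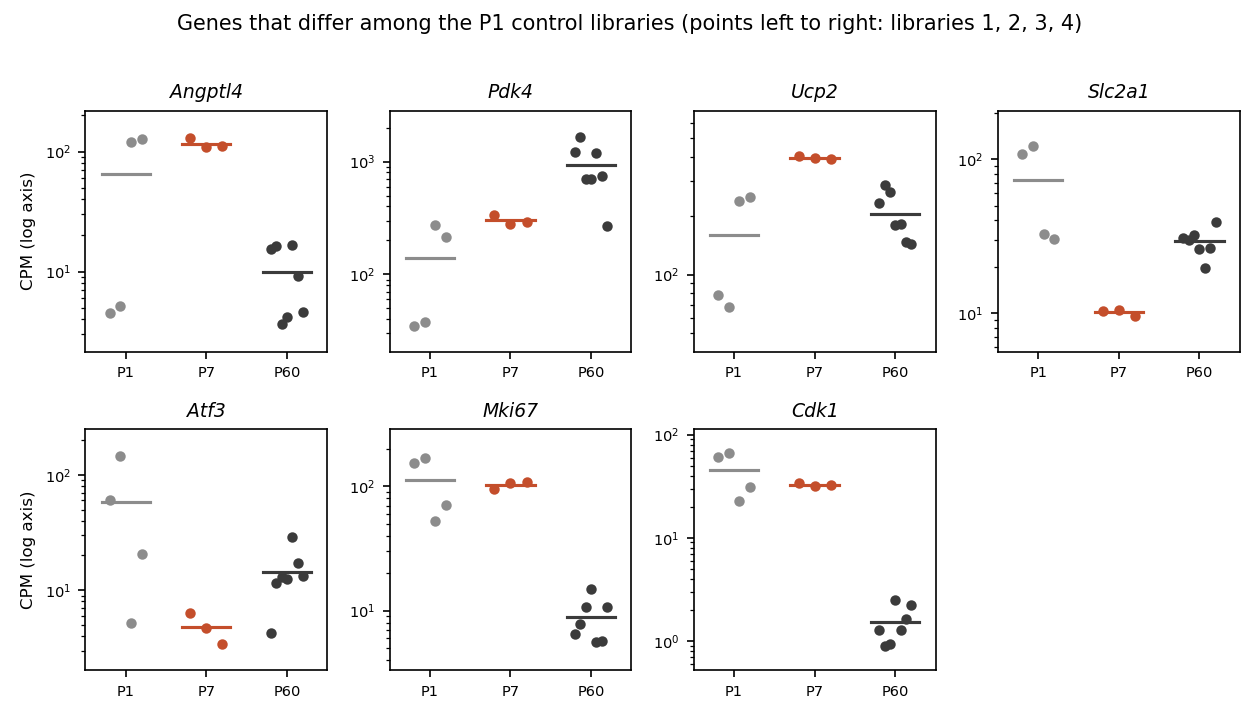
CPM on a log axis in each control library for 7 genes that differ among the P1 libraries, with 1 point per library in library order and a line at the mean of each age. P1 libraries 1 and 2 have 4.53 and 5.17 CPM of Angptl4 and libraries 3 and 4 lie within the range of the P7 libraries.

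Cell cycle genes depended on which P1 libraries P7 was set against. With all 14 libraries, all 39 mitosis genes were called higher at P7 than at P60 (median difference 3.88) and none was above P1, where the median difference was −0.42 and 5 were called lower at P7. Mki67 had 52.5 to 170.5 CPM at P1, 96.2 to 108 CPM at P7 and 5.63 to 14.8 CPM at P60. Cdk1, the kinase that drives mitosis, had 60.5, 66.7, 22.7 and 31.1 CPM at P1, 33.9, 31.8 and 32.3 CPM at P7 and 0.883, 1.28 and 2.49 CPM at P60. Its cyclin partner Ccnb1 had 26.3 to 52.7 CPM at P1, 20.8 to 21.9 CPM at P7 and 0.386 to 1.01 CPM at P60. None of 42 DNA replication genes was above both ages either, and 40 were higher than at P60. Without P1 libraries 1 and 2, the pair with more Mki67, 6 of the mitosis genes and 16 of the DNA replication genes were above both ages, and without libraries 3 and 4 none of either. The fetal sarcomere genes Myh7 and Tnni1 were lower at P7 than at P1. Myh7, the fetal myosin, had 7383, 8044, 2625 and 5389 CPM at P1, 256, 315 and 217 CPM at P7 and 226, 318 and 648 CPM at P60, and Tnni1, the fetal troponin I, had 1803, 1868, 1395 and 1839 CPM at P1, 878, 850.2 and 741 CPM at P7 and 0.306, 0.498 and 1.58 CPM at P60. Mbnl1 lay between the other ages, with 74.4, 62.4, 81.8 and 70.7 CPM at P1, 104, 96.9 and 97.1 CPM at P7 and 145, 152 and 169 CPM at P60, a contrast of −0.08 ± 0.07 that did not pass. Its paralog Mbnl2 had 129 to 142 CPM at P1, 143 to 152 CPM at P7 and 234 to 327 CPM at P60, and its paralog Mbnl3 had 1.402 to 3.66 CPM at P1, 1.41 to 2.62 CPM at P7 and 0.119 to 0.482 CPM at P60. The differences from P1 and from P60 had opposite signs in each of these 3 genes.

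Several transient genes had other levels in the Tg libraries of P7, which are given without a test. In those libraries Mbnl1 had 4079, 2927, 3437 and 3509 CPM. Ccn2 had 200.3, 151, 177 and 125 CPM in the Tg libraries, against 28.8, 39.8 and 36.05 CPM in the P7 controls. Eda2r had 14.8, 16.6, 19.1 and 14.7 CPM in the Tg libraries, against 7.69, 9.49 and 8.75 CPM in the P7 controls, and Cpz had 19.6, 20.8, 13.2 and 14.1 CPM, against 6.89, 7.22 and 8.16 CPM. Cthrc1, Aplnr and Col15a1 had 12.2 to 13.7, 206 to 225 and 611 to 642 CPM in the Tg libraries, against 15.3 to 16.3, 222 to 270.2 and 487 to 531 CPM in the P7 controls. Bdh1 and Pcx stayed low, at 0.139 to 0.617 and 5.85 to 7.23 CPM in the Tg libraries, against 0.103 to 0.697 and 6.91 to 7.13 CPM in the P7 controls.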

How the data were processed

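Total RNA of mouse heart ventricle was isolated with TRIzol and an RNeasy column and sequenced by BGI on DNBseq, per the labels' protocols. The deposited table holds counts, whole numbers of reads per Ensembl gene, from the authors' pipeline. Per the submitters' processing notes the tools were STAR, featureCounts, Salmon and DESeq2 and the build GRCm38 (mm10), with no role or version given. Annotation release and strand setting are not given in the sources used here, so overlapping or antisense genes cannot be told apart, and near-identical copies are uncertain. Symbols and positions came from GENCODE M21 (GRCm38), which matched 55227 of 55487 IDs.

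After removal of low counts by filterByExpr, 16388 genes were tested. The 14 control libraries were fitted as 4 group means with edgeR 4.0.16 (TMM, glmQLFit, glmQLFTest) in R 4.3.3, with the 7-day and 14-day P60 controls weighted by their libraries. Benjamini-Hochberg adjustment ran over all 16388 genes, with 0.05 as the threshold for a call. The SE was calculated back from the log2 difference and its F statistic. CPM were scaled by TMM over all 27 libraries. The test was checked on simulated data in which genes were steady with age apart from changes set at P7. Each comparison was called in 43.3% of the 1.5-fold, 80.6% of the 2-fold and 95.5% of the 4-fold changes. The same held for 0.00635% of genes not changed. Chi-square per degree of freedom was 6.34 to 76.8 over the 18 pairs of libraries within a group, more than counting error alone gives. Each library was treated as 1 sample, though these values cannot show that the libraries are from different mice.

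The members, the 58 gene lists (1335 of 1336 entries matched) and the rules were chosen with earlier results of these data known. Genes named are the 16 above and 12 below by the rule given with them, up to 4 called members with the largest contrast and the hallmark members of each list described, Mbnl1 to Mbnl3, and the genes on either side of the threshold. A gene that this rule names is not reported here. Alternatives covered the scaling, the filter, the tool (DESeq2 1.42.0, limma-voom 3.58.1), the libraries fitted, sex, and each library left out in turn. The promoter table is from RefSeq.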

Additional observations from a re-analysis of the deposited data

Results flagged for a closer look

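A library was singled out when its distance from the nearest other library of its age took a larger share of the whole range of that age than Dixon's 95% critical value. Over 288 groups of 144 genes this occurred 21 times, 14 at P1 and 7 at P60, where chance alone gives about 1 in 20 groups. Groups of 3, and so the P7 libraries, cannot be examined in this way. P1 library 3 was the one in 10 of the 14 cases at P1. It was low for Adamts12 (14.98 CPM, others 18.59 to 18.9), Fndc1 (42.07, others 57.99 to 60.73), Igfbp4 (174.5, others 184.1 to 185), Postn (395.1, others 631.8 to 668.8) and Tnni1 (1395, others 1803 to 1868). It was high for Corin (190.3 CPM, others 119.1 to 124.3), Gstm1 (127.6, others 70.83 to 74.93), Lyve1 (35.54, others 12.87 to 16.23), Vwf (90.9, others 80.84 to 82.38) and Xdh (28.46, others 3.081 to 4.398). P1 library 4 stood apart for Ifi27l2a (8.107 CPM, others 2.753 to 3.498) and Pdgfra (34.79, others 43.23 to 44.79), library 2 for Fos (28.95, others 2.709 to 7.089) and library 1 for Ppargc1a (143 CPM, others 99.45 to 103.9).

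The 7 cases at P60, over 144 genes, are about as many as chance alone gives at 1 in 20. They are listed for completeness. Library 7 of 14 days stood apart for Fbn1 (65.3 CPM, others 43.23 to 52.49), Gfra2 (4.092, others 1.775 to 2.546), Mt2 (5.074, others 10.97 to 15) and Tnni1 (1.582, others 0.306 to 0.5426). Library 5 of 14 days was high for Igf1 (16.34 CPM, others 11.92 to 13.41) and Nr4a1 (122 CPM, others 36.96 to 61.59), and library 2 of 7 days for Ccn2 (298.2 CPM, others 137.7 to 189).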

How the results depend on the processing

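Under scaling by total counts the median contrast of all genes shifted to 0.294, and the contrast called 4037 genes above and 1102 below both ages, against 2686 and 2484 with TMM. With each comparison called, 880 genes were above and 335 below, of which 583 and 275 were among the 754 and 634. Of the contrast calls 78.6% were higher under that scaling and 52% under TMM. It also turned the sign of the contrast in Mbnl1 (0.191), Tfam (0.175) and Nfatc1 (0.022). Leaving out each library in turn gave 471 to 796 genes above and 342 to 686 below. The low ends are P7 library 1 (486 and 369 without it), library 2 (471 and 342) and library 3 (509 and 387). The other alternatives gave 574 to 971 genes above and 425 to 860 below. The extremes were the fit of all 27 libraries (574 and 425) and the fit without P1 libraries 3 and 4 (971 and 860), of which 641 and 552 are shared with the main sets. DESeq2 gave 708 and 743, limma-voom 919 and 592. The fit with the replicate block gave 638 above and 508 below, although the numbers do not pair the samples (correlations of −0.137 to 0.062 over 10 pairs). Of 4175 contrast values of 144 named genes under 29 alternatives 4099 kept their side of the threshold, 49 were no longer past it and 24 newly passed it. Another 3 turned sign while past the threshold in the main fit or the alternative. A change of sign in a value past it in neither fit, as in Vegfa (−0.110 to 0.210), is counted among the 4099. In the fit of all 27 libraries the calls of Eln, Col14a1, Postn, Mmp2, Mmp14, Smtn, Eng, Esrrg, Corin, Ckm, Tnnt2, Igfbp4, Bcl2l1, Zmat3, Perp and Slc16a1 against both ages were lost, and without P1 libraries 1 and 2 those of Per2, Fam107a, Notch3, Irx3, Adrb1, Igf1, Maff, Eng, Bcl2l1 and Slc16a1. Of 100 named genes called against both ages 62 were so under all 29. Depth limits genes under about 1 CPM at P7, and 3 P7 libraries limit the small differences from P1.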

Other observations

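Of 26 antioxidant genes driven by NRF2, 6 were below both ages (23.1%, against 3.87% of all genes) and none above. The median contrast of −0.43 came mostly from P60 (−0.09 against P1, −1.04 against P60). At P7, 22 of the genes were called lower than at P60 and 6 lower than at P1. Gstm1, a glutathione transferase, had 71.4, 74.9, 128 and 70.8 CPM at P1, 36.1, 35.2 and 35.9 CPM at P7 and 314, 376 and 430.3 CPM at P60, and its relative Gstm2 had 40.6, 44.8, 50.8 and 46.8 CPM at P1, 24.1, 20.3 and 23.8 CPM at P7 and 126, 145 and 159 CPM at P60. Mt1 and Mt2 are on this list too. The NRF2 targets Nqo1 and Hmox1 were not among them, at 8.29 to 10.04 and 11.1 to 22.9 CPM at P1, 10.9 to 13.1 and 15.5 to 20.9 CPM at P7, and 45.1 to 63.9 and 14.5 to 18.6 CPM at P60.

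Of 26 genes of purine, one-carbon and serine synthesis 5 were below both ages, namely Shmt2, Mthfd1, Aldh1l1, Gart and Atic (19.2%, against 3.87% of all genes), and 1 under total count scaling. Of 35 cytosolic ribosomal protein genes 6 were below (17.1%) with a median contrast of −0.14, and none under total count scaling, in the fit of all 27 libraries or with the replicate block. Genes of mitochondrial biogenesis had 3 of 26 below (11.5%), while none of 43 nuclear respiratory chain genes was above or below both ages and all 43 were called lower than P60. On the mitochondrial chromosome 7 of 31 genes tested were below both ages, against 3.87% of all genes, and none of the 7 was among the 13 protein-coding genes. In all, 676 of the 754 genes above and 543 of the 634 below were in no list.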
